A study of Homo sapiens with 18 samples.

Results

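The autophagy and ER-phagy genes described here are 10 transcripts, 1 per gene, that were chosen by knowledge of the pathway and not by their values: SQSTM1, MAP1LC3B, GABARAP, GABARAPL2, BECN1, ATG5, RB1CC1, ULK1, RETREG1 and WIPI2. They were found by Ensembl transcript ID among 26679 entries of the footprint tables and 98334 entries of the mRNA tables. The recorded length of each equalled its protein length less 20 codons in the footprint tables and less 19 codons in the mRNA tables, so no transcript was dropped. Footprints of WIPI2 are not analysed here, which left 9 members for footprints and 10 for mRNA.

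The cells were HEK293, a human embryonic kidney line grown in DMEM with serum. WT cells were unedited, UFM1-KO was 1 clonal line edited with Cas9 and a guide against UFM1, and UFSP2-KO was 1 clonal line edited in the same way at UFSP2. UFM1 is a small ubiquitin-like protein that is attached to ribosomes at the endoplasmic reticulum (ER), on the ribosomal protein RPL26, and UFSP2 is the protease that takes it off again. Ribosome-protected fragments (footprints) were sequenced from a digitonin extract, called the cytosol, and from a Triton extract of the pellet that remained, called the membrane fraction, and mRNA was sequenced from whole-cell lysates. Each line had 2 libraries, a and b, of each kind, 18 in all. Because each knockout was a single clone, the edited gene and other differences between clones cannot be told apart, and the transcripts of UFM1 and UFSP2 are not analysed here, so the counts give no check of the knockout labels. The labels do not say that a and b came from separate cultures, so p-values measure only the spread between these libraries.

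In autophagy, a double membrane closes around cargo and delivers it to the lysosome. The ULK1 kinase complex, which holds the scaffold RB1CC1 (also called FIP200), starts the process, and a lipid kinase complex with BECN1 marks the forming membrane. WIPI2 reads that lipid mark and brings in the conjugation machinery with ATG5, which couples the ubiquitin-like ATG8 proteins (here MAP1LC3B, GABARAP and GABARAPL2) to the membrane. Receptors then tie cargo to ATG8 proteins: SQSTM1 (p62) binds ubiquitinated cargo, and RETREG1 (FAM134B), a reticulon-like protein of the ER membrane, ties the ER itself to them in ER-phagy. UFM1 conjugation has been studied as a regulator of ER-phagy.

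In the RefSeq annotation of GRCh38.p14, MAP1LC3B spans 87392336 to 87404774 on chromosome 16, GABARAPL2 spans 75566379 to 75577881 on chromosome 16, and GABARAP spans 7240008 to 7242449 on chromosome 17. The 250 bases before the start of each of these 3 ATG8 genes are shown because these genes make up 3 of the 4 members called between the knockouts below, with capitals at every GGGCGG or its reverse complement, the GC box. The windows are chr16:87392086-87392335 on the plus strand for MAP1LC3B, chr17:7242450-7242699 on the minus strand for GABARAP and chr16:75566129-75566378 on the plus strand for GABARAPL2, and each is written 5′ to 3′ on the strand of its gene.
MAP1LC3B: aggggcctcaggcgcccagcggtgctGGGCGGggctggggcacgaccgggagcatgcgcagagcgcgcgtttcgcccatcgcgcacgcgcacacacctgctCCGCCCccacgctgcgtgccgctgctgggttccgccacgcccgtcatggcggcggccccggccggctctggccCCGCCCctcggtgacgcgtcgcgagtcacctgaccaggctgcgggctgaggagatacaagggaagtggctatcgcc
GABARAP: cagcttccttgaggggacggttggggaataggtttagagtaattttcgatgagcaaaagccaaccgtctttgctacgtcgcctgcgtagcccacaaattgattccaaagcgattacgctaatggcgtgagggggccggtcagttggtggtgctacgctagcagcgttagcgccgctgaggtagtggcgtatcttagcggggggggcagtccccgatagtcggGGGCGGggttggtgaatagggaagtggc
GABARAPL2: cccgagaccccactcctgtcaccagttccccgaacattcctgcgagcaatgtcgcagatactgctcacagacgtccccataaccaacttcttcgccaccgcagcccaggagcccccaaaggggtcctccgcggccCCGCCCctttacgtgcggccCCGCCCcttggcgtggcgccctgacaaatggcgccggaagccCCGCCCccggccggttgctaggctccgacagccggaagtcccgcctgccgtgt
The GC content of these stretches was 74.8% for MAP1LC3B, 57.2% for GABARAP and 68.4% for GABARAPL2, beside a median of 58.0% over the same 250 bases of all 35116 RefSeq promoter windows. MAP1LC3B and GABARAPL2 each held 3 GC boxes and GABARAP held 1. Over whole windows, which run on 50 bases past the start, 10 of the 14 windows of the members held a GC box, and 45.0% of all windows did. The 10 belong to 8 of the 9 members with a window, and BECN1 had none.

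A palindrome at the centre of the CLEAR element, CACGTG, known as the site of TFEB and its relatives at lysosomal and autophagy genes, was in 0 of the 14 windows of these 9 genes, and 7.26% of all windows held it. The longer forms TCACGTGA and TCACGTGAC, which contain it, were likewise in 0 of the 14, as was the longer CLEAR palindrome, and were in 0.98% and 0.84% of all windows. CCAAT was found in windows of ATG5, BECN1 and RETREG1 (34.6% of all windows), CCGGAAG in windows of ATG5, BECN1, GABARAPL2 and SQSTM1 (10.3% of all windows), TGACNNNGC in windows of MAP1LC3B and RETREG1 (13.3% of all windows), and TATAAA in a window of ATG5 (11.5% of all windows). The other motifs searched on both strands, TGACGTCA and TGACGTNN (which overlap each other) with TTTCCGGAA, then GCCATNTTG with TCGCGANA and the ZNF143 motif, were in 0 of the members' windows and in 0.265% to 7.96% of all windows. These 15 searches were made after expression values were known. A match is a string of letters and not a binding site, and the libraries hold no measurement at these promoters.

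Footprint libraries held 1393032 to 11388755 counts and mRNA libraries 37451244 to 68675420. Within a group, Pearson's r between libraries a and b across features was 0.957 to 0.98. Their counts differed by more than counting noise, so each was treated as a library of its own. Levels are in CPM, edgeR's depth-scaled counts after TMM adjustment, over features in which entries with identical counts were merged. BECN1 and ATG5 each stand for a pair of entries with identical counts, the listed transcript and 1 isoform. MAP1LC3B has a near-identical gene copy, MAP1LC3B2, with which it may share reads, so its counts are uncertain in that respect. Differences are log2 values from edgeR's quasi-likelihood test with a standard error (SE), and a member was called when its Benjamini-Hochberg adjusted p over all features was under 0.05. That test gives no SE of its own. The SE was computed as the absolute log2 value divided by the square root of the test's F statistic. Values below are relative to the rest of the same library, and CPM in 1 fraction does not give the number of ribosomes per cell. In these bulk libraries, fewer cells with a transcript and less of it per cell cannot be told apart.

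The ER-phagy receptor RETREG1 (ENST00000306320, chromosome 5) was read almost only in the membrane libraries. Membrane CPM in libraries a and b was 22.5 and 19.1 for WT cells, 21.1 and 18.2 for the UFM1-KO clone, and 16.5 and 24.7 for the UFSP2-KO clone. The deposited cytosol counts were 0 and 4 for WT cells, 0 and 1 for the UFM1-KO clone, and 0 and 1 for the UFSP2-KO clone. Every membrane library was far above every cytosol library in each line, and the membrane libraries of the 3 lines overlapped. A count of 0 in a cytosol library allowed up to 3 counts, which was 2.998 CPM for WT, 2.06 CPM for UFM1-KO and 2.66 CPM for UFSP2-KO.

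With counts summed over libraries, RETREG1 had 192 membrane and 4 cytosol counts in WT, a rate ratio of 24.5 with an exact 95% interval of 9.43 to 91.0. The ratio was 56.7 in UFM1-KO (148 membrane counts and 1 cytosol count, interval 10.0 to 2256) and 85.2 in UFSP2-KO (91 counts and 1 count, interval 14.9 to 3401). These intervals cover counting error only, and the 3 overlap widely. In edgeR's test of membrane against cytosol the adjusted p of RETREG1 was 1.76e-08 for WT, 5.31e-08 for UFM1-KO and 1.14e-08 for UFSP2-KO. RETREG1 passed the filter on low counts through its membrane libraries alone.

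Among all 9 members, edgeR called 4 in membrane against cytosol in WT, where 37.5% of all features tested were called: RETREG1 was higher in the membrane fraction, and GABARAP, GABARAPL2 and ATG5 were lower. In UFM1-KO 3 members were called, beside 28.9% of all features, and these were RETREG1 (higher) with MAP1LC3B and GABARAP (lower). In UFSP2-KO 3 members were called, beside 36.9% of all features, and these were RETREG1 (higher) with GABARAP and GABARAPL2 (lower). The shares of members called were near the background in each line. These shares include RETREG1, which could pass the filter only by its membrane counts, so the filter favoured its call. Among all features, the RETREG1 log2 ratio ranked at percentile 85.6 for WT cells, 91.6 for the UFM1-KO clone and 93.3 for the UFSP2-KO clone. Membrane and cytosol libraries did not overlap for 7 of the 9 members of WT cells, 5 of the UFM1-KO clone and 5 of the UFSP2-KO clone, beside 67.3%, 59.2% and 64.9% of all features, again near the background. The median membrane-to-cytosol log2 difference of the members was -0.58 for WT, -0.38 for UFM1-KO and -0.57 for UFSP2-KO, beside -0.02, 0.02 and 0.01 over all features.

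**Figure D1:**
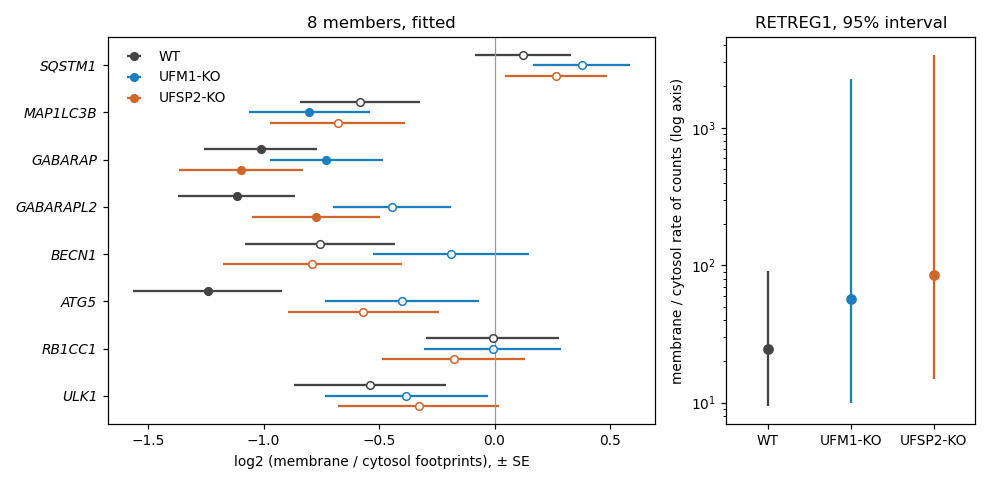
Membrane-to-cytosol ratio of footprints in each line. Left, fitted log2 ratio of 8 members with the SE as bars, filled where edgeR called it; right, ratio of RETREG1 count rates on a log axis with exact 95% intervals. GABARAP lies left of 0 and is filled in all 3 lines, and RETREG1 lies at 24.5, 56.7 and 85.2.

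The ATG8-family transcripts, which encode soluble proteins made in the cytosol, had negative membrane-to-cytosol values in all 3 lines, with GABARAP called in each, GABARAPL2 in WT and UFSP2-KO, and MAP1LC3B in UFM1-KO. GABARAP (ENST00000302386) read 71.1 and 73.1 CPM in the membrane libraries a and b of WT and 134 and 155 CPM in the cytosol. Its log2 ratio was -1.01 (SE 0.24, edgeR adjusted p = 0.00131) for WT, -0.73 (SE 0.24, adjusted p = 0.0246) for UFM1-KO and -1.10 (SE 0.27, adjusted p = 0.00145) for UFSP2-KO. The fractions did not overlap in any of the 3 lines. In UFM1-KO the call was lost with DESeq2 (adjusted p = 0.068) and without membrane library a, membrane library b or cytosol library b (edgeR adjusted p = 0.112 to 0.388), and the ratio was -0.39 without cytosol library b. In UFSP2-KO it was lost without cytosol library b, where the ratio was -0.68 (edgeR adjusted p = 0.106).

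GABARAPL2 (ENST00000037243) read 34.3 and 49.4 CPM in the WT membrane libraries and 93.9 and 92.1 CPM in the WT cytosol. Its log2 ratio was -1.12 (SE 0.25, edgeR adjusted p = 0.000736) for WT, -0.44 (SE 0.26, adjusted p = 0.225) for UFM1-KO and -0.77 (SE 0.28, adjusted p = 0.0288) for UFSP2-KO. With library size as the only scaling, the UFM1-KO value was called (-0.73, edgeR adjusted p = 0.0206). The UFSP2-KO call was lost with DESeq2 (adjusted p = 0.141), without membrane library a, where the ratio was -0.51 (edgeR adjusted p = 0.282), and without cytosol library b, where it was -0.30 (edgeR adjusted p = 0.589).

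MAP1LC3B (ENST00000268607) read 48.2 and 54.3 CPM in the WT membrane libraries and 58.0 and 90.5 CPM in the WT cytosol. Its log2 ratio was -0.58 (SE 0.26, edgeR adjusted p = 0.0783) for WT, -0.80 (SE 0.26, adjusted p = 0.0199) for UFM1-KO and -0.68 (SE 0.29, adjusted p = 0.0709) for UFSP2-KO. The UFM1-KO call was lost with DESeq2 (adjusted p = 0.0827) and without membrane library a, membrane library b or cytosol library b (edgeR adjusted p = 0.0514 to 0.267), and the ratio was -0.52 without cytosol library b. The WT value was called with library size as the only scaling (edgeR adjusted p = 0.0194). It was also called with the letter a or b as a replicate block (edgeR adjusted p = 0.0253). It was -0.81 without cytosol library a and -0.16 without cytosol library b. The UFSP2-KO value was called with library size only and with no filter on low counts (edgeR adjusted p = 0.0136 and 0.0353). It was also called with only the groups compared and with the replicate block (edgeR adjusted p = 0.0326 and 0.0233). It was -1.03 without membrane library b, -0.94 without cytosol library a and -0.29 without cytosol library b.

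ATG5 (ENST00000369076), part of the enzyme complex that couples ATG8 proteins to lipid, read 6.54 and 7.40 CPM in the WT membrane libraries and 14.0 and 18.2 CPM in the WT cytosol. Its log2 ratio was -1.24 (SE 0.32, edgeR adjusted p = 0.00281) in WT, and that call was lost with DESeq2 (adjusted p = 0.0573) and without WT cytosol library b (edgeR adjusted p = 0.173). In UFM1-KO the ATG5 ratio was -0.40 (SE 0.33) and in UFSP2-KO it was -0.57 (SE 0.33), neither of them called. The WT membrane values rest on 16 and 53 deposited counts.

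The remaining 4 members with footprints did not pass this test in any line. SQSTM1 (ENST00000389805) had log2 ratios of 0.12 (SE 0.21) in WT, 0.38 (SE 0.21) in UFM1-KO and 0.27 (SE 0.22) in UFSP2-KO, with every membrane library above every cytosol library in each line. RB1CC1 had ratios of -0.01 (SE 0.29), -0.01 (SE 0.30) and -0.18 (SE 0.31) in the same order, with fractions that overlapped. BECN1 and ULK1 had ratios between -0.79 and -0.19, with SE from 0.32 to 0.39. With library size as the only scaling, BECN1 was called in WT (-0.89, edgeR adjusted p = 0.0293) and UFSP2-KO (-0.97, adjusted p = 0.0471). The BECN1 fractions did not overlap in WT but overlapped in both knockouts. In WT, ULK1 cytosol libraries a and b read 41.97 and 17.96 CPM beside 17.98 and 18.14 CPM in the membrane fraction, so that 1 library set the mean of the cytosol. Without WT cytosol library b, where the high library a alone stood for the cytosol, the ULK1 ratio was -1.21 and was called (edgeR adjusted p = 0.0113).

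**Figure D2:**
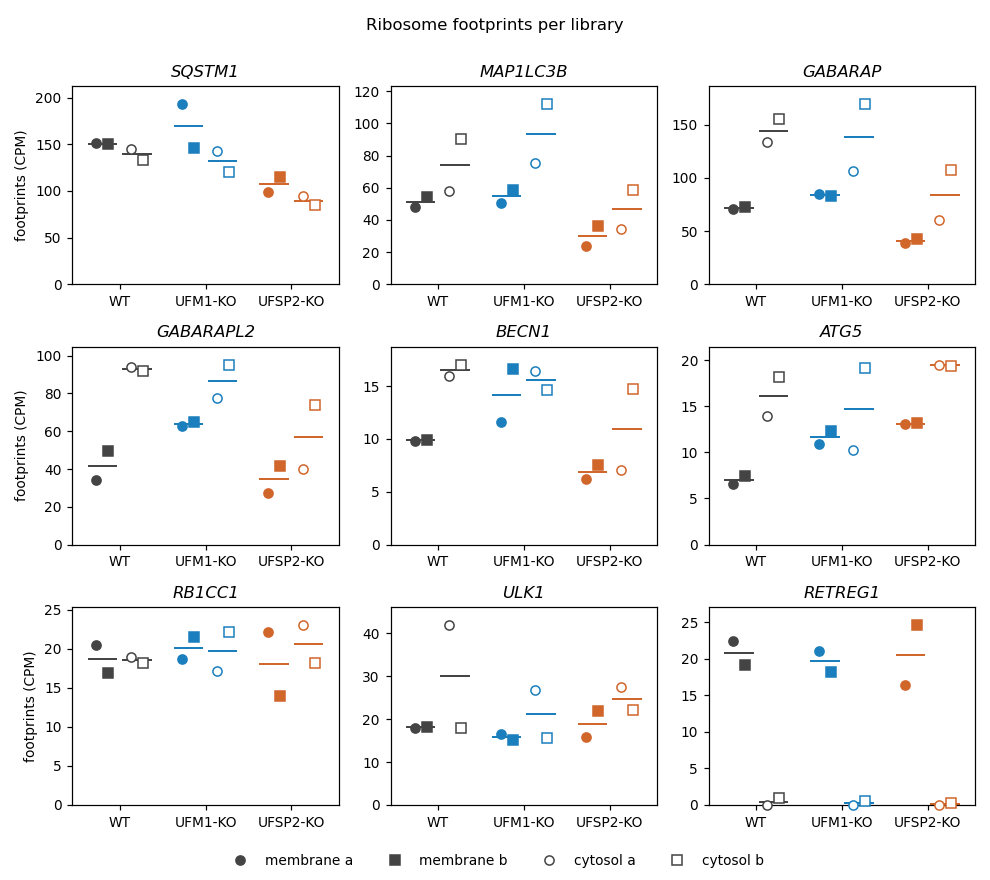
Footprints of the 9 members in each library, in CPM on linear axes from 0; filled marks are the membrane fraction, open marks the cytosol, circles library a, squares library b, and short lines the mean of 2 libraries. In the UFSP2-KO membrane fraction GABARAP reads 38.6 and 42.2 CPM, below the 71.1 and 73.1 CPM of WT, and RETREG1 lies at or near 0 in every cytosol library.

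Comparing the fraction ratio of a knockout with that of WT asks whether the split of a transcript's footprints between fractions changed. edgeR called 0 of the 9 members in either knockout, with 0 members at an unadjusted p under 0.05 (4.87% of all features for UFM1-KO and 4.4% for UFSP2-KO) and 0 called by DESeq2. Over all features, 0.00904% were called in UFM1-KO against WT and 0.00904% in UFSP2-KO against WT, so the test called next to nothing among features in general. GABARAPL2 had a change of 0.67 (SE 0.36) and ATG5 a change of 0.84 (SE 0.46) in UFM1-KO against WT. In UFSP2-KO against WT the ATG5 change was 0.67 (SE 0.46) and that of GABARAP was -0.08 (SE 0.36).

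In membrane footprints of UFM1-KO against WT, 0 of the 9 members were called by edgeR or DESeq2, beside 1.26% of all features, and 2 members had an unadjusted p under 0.05, beside 11.2% of all features. These were GABARAPL2, at 62.8 and 64.9 CPM in UFM1-KO against 34.3 and 49.4 CPM in WT, a log2 difference of 0.57 (SE 0.25, edgeR adjusted p = 0.372), and ATG5, at 10.9 and 12.3 CPM against 6.54 and 7.40 CPM, a difference of 0.69 (SE 0.32, adjusted p = 0.425). The libraries of the lines did not overlap for 5 of the 9 members, namely these 2, GABARAP and BECN1 (higher in UFM1-KO) and ULK1 (lower), beside 44.8% of all features. Without WT membrane library a the GABARAPL2 difference was 0.37 and without library b it was 0.89, neither called. SQSTM1, MAP1LC3B, RB1CC1 and RETREG1 had differences from -0.04 to 0.18.

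In membrane footprints of UFSP2-KO against WT, 1 of the 9 members was called, beside 11.1% of all features. This share of members was near the background. The member called was GABARAP, which read 38.6 and 42.2 CPM in UFSP2-KO against 71.1 and 73.1 CPM in WT. Both knockout libraries were below both WT libraries, with a log2 difference of -0.83 (SE 0.26, edgeR adjusted p = 0.0396). The call was lost with DESeq2 (adjusted p = 0.116) and with any 1 of the 4 libraries left out (edgeR adjusted p = 0.124 to 0.211), while the value stayed between -0.90 and -0.77.

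With GABARAP, 4 of the 9 members had an unadjusted p under 0.05 in this comparison, beside 25.6% of all features. MAP1LC3B read 23.9 and 36.2 CPM in UFSP2-KO against 48.2 and 54.3 CPM in WT, a difference of -0.76 (SE 0.28, edgeR adjusted p = 0.0805). SQSTM1 read 98.9 and 115 CPM against 151 and 151 CPM, a difference of -0.49 (SE 0.21, adjusted p = 0.135). ATG5 read 13.1 and 13.1 CPM against 6.54 and 7.40 CPM, a difference of 0.88 (SE 0.34, adjusted p = 0.0943). The libraries of the lines did not overlap for 5 of the 9 members, with ATG5 above WT and GABARAP, MAP1LC3B, SQSTM1 and BECN1 below it, beside 58.7% of all features. When only the 4 libraries compared were fitted, edgeR called MAP1LC3B (adjusted p = 0.0118) and SQSTM1 (adjusted p = 0.0277) beside GABARAP.

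In membrane footprints of UFM1-KO against UFSP2-KO, 4 of the 9 members were called, beside 21.4% of all features, and all 4 were higher in UFM1-KO. They were the 3 ATG8-family members and the cargo receptor SQSTM1. This comparison uses no WT library, and it shares its UFSP2-KO and UFM1-KO libraries with the comparisons above. An unadjusted p under 0.05 was reached by 5 members, beside 34.5% of all features, and libraries did not overlap for 6 members, beside 64% of all features. The median difference was 0.67 over the 9 members and 0.04 over all features.

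GABARAP read 84.6 and 83.2 CPM in the UFM1-KO membrane fraction against 38.6 and 42.2 CPM in UFSP2-KO, a difference of 1.05 (SE 0.26, edgeR adjusted p = 0.00525), and it was the member that DESeq2 also called (1 of 9). GABARAPL2 read 62.8 and 64.9 CPM against 27.3 and 41.8 CPM, a difference of 0.86 (SE 0.27, adjusted p = 0.0231). MAP1LC3B read 50.8 and 58.5 CPM against 23.9 and 36.2 CPM, a difference of 0.83 (SE 0.28, adjusted p = 0.0369). The lines did not overlap for any of the 3.

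SQSTM1 read 193 and 146 CPM in UFM1-KO against 98.9 and 115 CPM in UFSP2-KO, a difference of 0.67 (SE 0.21, edgeR adjusted p = 0.0238), again without overlap. BECN1, the lipid kinase subunit, read 11.6 and 16.6 CPM against 6.25 and 7.56 CPM, a difference of 0.95 (SE 0.37, adjusted p = 0.0651), and rests on 11 and 19 counts in UFSP2-KO. Leaving out UFSP2-KO membrane library a left 0 members called, with adjusted p = 0.0596 for GABARAP. Leaving out UFM1-KO membrane library a left 1 called, with the SQSTM1 difference at 0.45, and library b left 2. ATG5, RB1CC1, ULK1 and RETREG1 had differences from -0.27 to 0.16 and were not called.

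**Figure D3:**
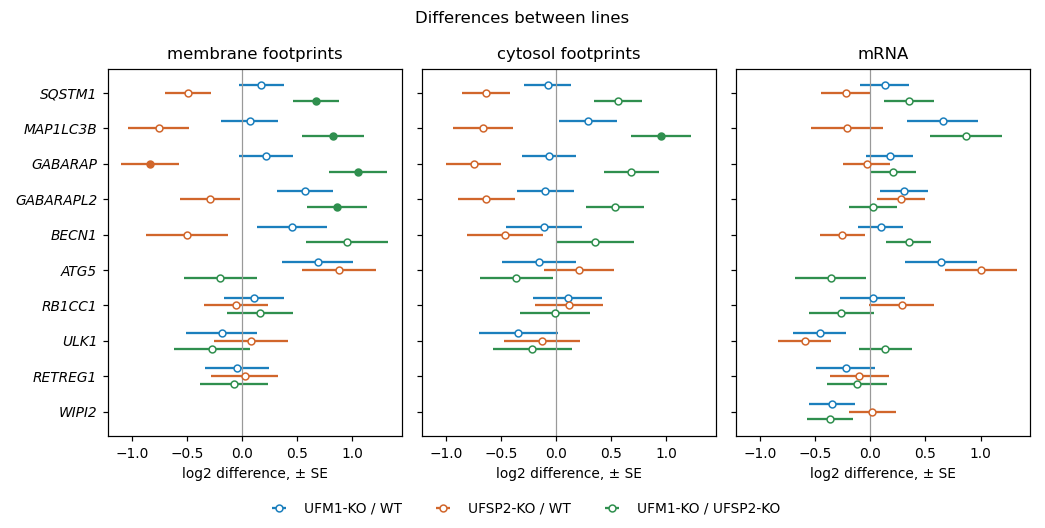
Log2 differences between lines with the SE as bars, for membrane footprints, cytosol footprints and mRNA; filled marks were called by edgeR. The filled marks are GABARAP at -0.83 in UFSP2-KO against WT, GABARAP, GABARAPL2, MAP1LC3B and SQSTM1 from 0.67 to 1.05 in UFM1-KO against UFSP2-KO, and MAP1LC3B at 0.95 in the cytosol. RETREG1 is left out of the cytosol, where it had at most 4 counts.

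In cytosol footprints of UFM1-KO against WT, edgeR and DESeq2 called 0 of the 9 members, beside 0.85% of all features with edgeR, and 0 had an unadjusted p under 0.05, beside 11.4% of all features. Libraries did not overlap for 0 of the 9 members and for 36.5% of all features. Leaving RETREG1 aside, the differences ran from -0.34 for ULK1 to 0.29 for MAP1LC3B.

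In cytosol footprints of UFSP2-KO against WT, 0 of the 9 members were called by edgeR or DESeq2, beside 3.99% of all features with edgeR, and 4 members had an unadjusted p under 0.05, beside 19% of all features. These were SQSTM1 and the 3 ATG8-family members. Libraries did not overlap for 5 of the 9 members and for 44.5% of all features. GABARAP read 60.3 and 107 CPM in UFSP2-KO against 134 and 155 CPM in WT, a difference of -0.75 (SE 0.25, edgeR adjusted p = 0.0883). Without UFSP2-KO cytosol library b that difference was -1.14 and was called (edgeR adjusted p = 0.0429), and without library a it was -0.44. SQSTM1 read 94.0 and 85.2 CPM against 145 and 133 CPM, a difference of -0.64 (SE 0.22, adjusted p = 0.102). MAP1LC3B (-0.66, SE 0.27) and GABARAPL2 (-0.63, SE 0.26) had adjusted p of 0.175 and 0.176 with edgeR. UFSP2-KO cytosol libraries a and b were themselves far apart for the ATG8 genes, as 39.9 and 74.0 CPM for GABARAPL2 show. Cytosol library b was also above library a in the other lines for MAP1LC3B and GABARAP. MAP1LC3B read 75.4 and 112 CPM in UFM1-KO and 58.0 and 90.5 CPM in WT. GABARAPL2 in WT cytosol was not higher in library b, at 93.9 and 92.1 CPM.

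In cytosol footprints of UFM1-KO against UFSP2-KO, 1 of the 9 members was called, beside 12% of all features, a share near the background. MAP1LC3B read 75.4 and 112 CPM in UFM1-KO against 34.6 and 58.5 CPM in UFSP2-KO, a difference of 0.95 (SE 0.27, edgeR adjusted p = 0.0215). The lines did not overlap for MAP1LC3B, as for 4 of the 9 members and 50% of all features, and 3 members had an unadjusted p under 0.05, beside 25.8% of all features. The call was lost with DESeq2 (adjusted p = 0.0642), without UFM1-KO library b (0.59, edgeR adjusted p = 0.293) and without UFSP2-KO library a (edgeR adjusted p = 0.164). With library size as the only scaling, SQSTM1 (edgeR adjusted p = 0.0308) and GABARAP (adjusted p = 0.0206) were called as well. The GABARAP difference was 0.68 with all libraries, 1.08 without UFSP2-KO library b and 0.96 without UFM1-KO library a.

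In mRNA of whole cells, edgeR called 0 of the 10 members in UFM1-KO against WT (1.97% of all features), 0 in UFSP2-KO against WT (7.18% of all features) and 0 in UFM1-KO against UFSP2-KO (15.9% of all features). Members with an unadjusted p under 0.05 numbered 0, 2 and 1 in that order, beside 16.2%, 24.7% and 31.2% of all features. Libraries did not overlap for 5 of the 10 members in each comparison, beside 48.8%, 53.4% and 58.2% of all features. DESeq2 called 0, 1 and 0 members and 521, 1397 and 2550 features. GABARAP mRNA was 82.0 and 82.8 CPM in UFM1-KO cells, 70.2 and 72.5 CPM in UFSP2-KO cells, and 80.0 and 66.1 CPM in WT. The UFSP2-KO and WT libraries overlapped, with a log2 difference of -0.03 (SE 0.21, edgeR adjusted p = 0.939). SQSTM1 mRNA was 142 and 219 CPM in UFM1-KO cells, 155 and 128 CPM in UFSP2-KO cells, and 165 and 164 CPM in WT, and its difference in UFSP2-KO against WT was -0.22 (SE 0.23).

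The mRNA of ATG5 was the closest to a call. It read 29.0 and 56.3 CPM in UFSP2-KO cells, 42.2 and 24.0 CPM in UFM1-KO cells, and 24.1 and 18.4 CPM in WT. Both UFSP2-KO libraries were above both WT libraries, with a difference of 1.002 (SE 0.33, edgeR adjusted p = 0.0743), but they were also nearly 1 log2 unit apart from each other. The call was gained with DESeq2 (adjusted p = 0.0389) and with no filter on low counts (edgeR adjusted p = 0.0411). It was also gained with only the groups compared (edgeR adjusted p = 0.00879). With the letter a or b as a replicate block it was gained too (edgeR adjusted p = 0.0248). Without UFSP2-KO library a the difference was 1.41, and without library b it was 0.45.

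ULK1, the kinase at the start of the pathway, read 26.3 and 24.2 CPM in UFSP2-KO cells, 28.8 and 26.8 CPM in UFM1-KO cells, and 32.9 and 43.4 CPM in WT. Its libraries in each knockout were below those of WT, with differences of -0.59 (SE 0.24, edgeR adjusted p = 0.143) in UFSP2-KO and -0.46 (SE 0.24, adjusted p = 0.363) in UFM1-KO. WIPI2, the reader of the lipid mark, read 74.0 and 81.8 CPM in UFM1-KO cells, 113 and 87.7 CPM in UFSP2-KO cells, and 97.2 and 101 CPM in WT, and its difference in UFM1-KO against WT was -0.35 (SE 0.21, adjusted p = 0.437). RETREG1 mRNA stayed within 13.2 and 16.5 CPM over all 6 libraries.

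MAP1LC3B mRNA depended on 1 library. It read 40.9 and 18.3 CPM in UFM1-KO, where library a stood above every other library, and 15.1 to 20.7 CPM in the 4 libraries of the other lines. The difference in UFM1-KO against WT was 0.66 (SE 0.32, edgeR adjusted p = 0.328), and without UFM1-KO library b it was 1.12 and was called (edgeR adjusted p = 0.0327), while without library a it was -0.04. Against UFSP2-KO the difference was 0.87 (SE 0.33, adjusted p = 0.0803), and without UFM1-KO library b it was 1.33 and was called (edgeR adjusted p = 0.00226), while without library a it was 0.17. RB1CC1 was also spread within a line, at 66.7 and 138 CPM in the UFSP2-KO clone and at 104 and 66.4 CPM in the UFM1-KO clone, beside 89.2 and 78.7 CPM in WT.

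**Figure D4:**
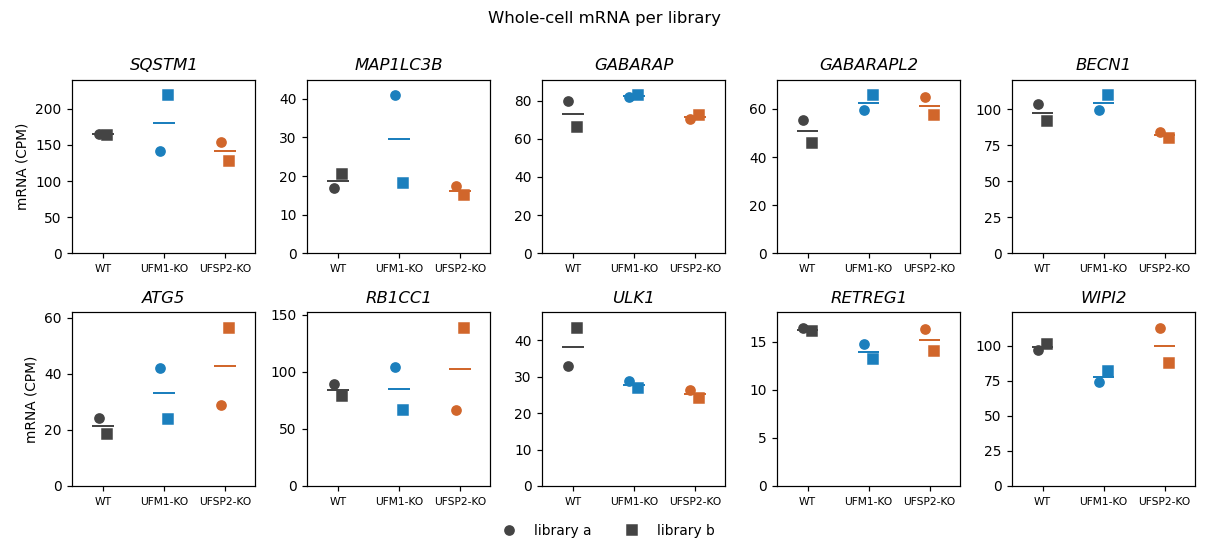
Whole-cell mRNA of the 10 members in each library, in CPM on linear axes from 0; circles are library a, squares library b, and short lines the mean of 2 libraries. Libraries a and b lie far apart for ATG5 and RB1CC1 in UFSP2-KO (29.0 and 56.3, 66.7 and 138 CPM) and for MAP1LC3B in UFM1-KO (40.9 and 18.3 CPM).

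A footprint change can follow an mRNA change or go beyond it, and the difference of the 2 changes was tested in 1 model over all 18 libraries. edgeR called 0 of the 9 members in each of the 4 such comparisons, as did DESeq2, and GABARAP (membrane) and GABARAPL2 (cytosol), each in UFSP2-KO, were the 2 values with an unadjusted p under 0.05. Over all features, edgeR called 0% for the membrane fraction and 0% for the cytosol of UFM1-KO against WT, where 4.28% and 5.96% had an unadjusted p under 0.05. For UFSP2-KO against WT it called 0.0792% and 0.0158%, where 8.79% and 6.88% had an unadjusted p under 0.05. For GABARAP in UFSP2-KO the mRNA change subtracted from the membrane change left -0.84 (SE 0.34, edgeR adjusted p = 0.49), and subtracted from the cytosol change it left -0.67 (SE 0.33, adjusted p = 0.714). For GABARAPL2 these were -0.60 (SE 0.36) and -0.88 (SE 0.35, adjusted p = 0.638), and for SQSTM1 -0.31 (SE 0.31) and -0.37 (SE 0.32). For ATG5, whose membrane footprints and mRNA were both above WT in value, the membrane change less the mRNA change was -0.15 (SE 0.50).

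The members differed widely among themselves in footprints relative to their own mRNA. This ratio was set on a percentile scale, since its absolute scale depends on the normalisation across assays, and it is a description of these libraries without a test. The scale covers features of the joint model with mean footprints and mRNA above 0. These were 12543 in the WT membrane fraction and 12012 in the WT cytosol, so features without footprints in a fraction are left out. In WT cytosol, MAP1LC3B stood at percentile 98.7, GABARAP at 95.7 and GABARAPL2 at 95.1, which put the 3 ATG8 genes above the other 6 members. In the WT membrane fraction they stood at percentiles 94.4, 72.7 and 65.7. The 3 encode short proteins, and the length cancels in this ratio only if footprints and mRNA were counted over the same stretch.

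BECN1 stood at the other end, at percentile 3.99 in the WT membrane fraction and 22.7 in the WT cytosol, and RB1CC1 stood at 14.5 and 27.6. RETREG1 of WT was at percentile 80.4 with membrane footprints and 6.80 with cytosol footprints, which is its fraction difference seen on this scale. In the membrane fraction of UFSP2-KO, GABARAP stood at percentile 49.5 and GABARAPL2 at 49.1, beside 73.0 and 73.1 in UFM1-KO. MAP1LC3B kept to percentiles 87.1 to 94.4 in the membrane fraction and 97.7 to 98.7 in the cytosol over the 3 lines.

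**Figure D5:**
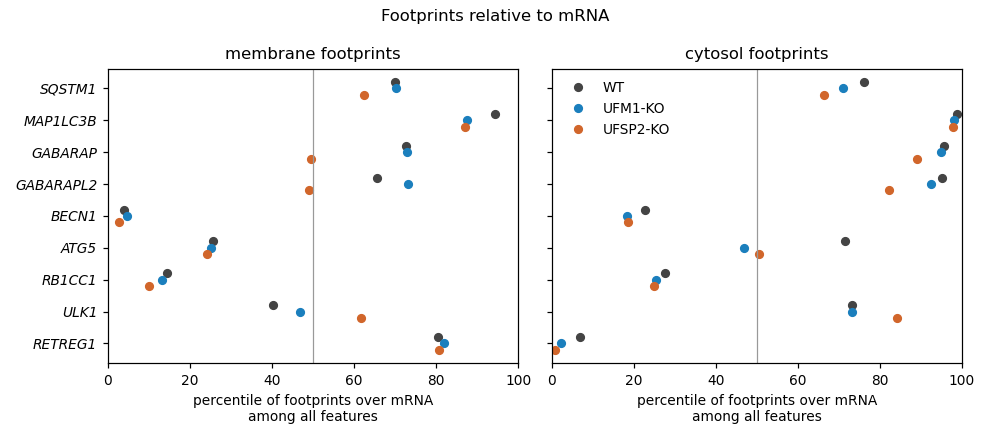
Percentile of each member's footprints over mRNA among all features of the joint model, for the membrane fraction and the cytosol of each line; the vertical line marks the median feature. MAP1LC3B lies at 97.7 to 98.7 in the cytosol and BECN1 at 2.64 to 4.77 in the membrane fraction.

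Levels between genes can be compared per 1000 codons of the counted length. In WT cytosol, footprints per 1000 codons were 1490 ± 155 CPM (SD, n = 2) for GABARAP, 959 ± 13.4 for GABARAPL2, 707 ± 219 for MAP1LC3B and 331 ± 19.5 for SQSTM1. The order of GABARAPL2 and MAP1LC3B lay close to the spread of the latter. ATG5 followed at 63.1 ± 11.6, then BECN1 at 38.4 ± 1.73, ULK1 at 29.1 ± 16.5, RB1CC1 at 11.8 ± 0.36 and RETREG1 at 0.97 ± 1.37. BECN1 and ULK1 did not differ beyond the spread of ULK1.

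In WT mRNA the order was different: GABARAP stood at 745 ± 100 CPM per 1000 codons (SD, n = 2), GABARAPL2 at 517 ± 66.2, SQSTM1 at 391 ± 2.78, WIPI2 at 228 ± 6.42 and BECN1 at 227 ± 20.0. MAP1LC3B followed at 178 ± 24.7, below BECN1, and ATG5 at 83.0 ± 16. RB1CC1 stood at 53.3 ± 4.71, ULK1 at 37.0 ± 7.18 and RETREG1 at 34.1 ± 0.47. WIPI2 and BECN1 did not differ beyond their spread, nor did ULK1 and RETREG1.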

How the data were processed

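The authors deposited raw counts per versioned Ensembl transcript, 1 table per library, for 12 footprint and 6 mRNA libraries. The submitters' processing notes name TopHat2 2.1.1 and the GRCh38 build. How reads were counted, and over which annotation release, is not given in the sources used here. Entries with identical counts in every library were merged into 1 feature. mRNA entries were those matched to footprint entries by ID and length, plus WIPI2.

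edgeR 4.0.16 (R 4.3.3) fitted 1 coefficient per group with filterByExpr (minimum count 10), TMM and the quasi-likelihood test, two-sided, with Benjamini-Hochberg adjustment over all features: 11065 for footprints, 13901 for mRNA and 12629 in the joint model. The models were also run on simulated counts with known changes, and no result given here rests on that run. DESeq2 1.42.0, other scalings and filters, a replicate block and leaving out libraries were alternatives. Every listed member is named. Members, motifs and lists were chosen with earlier results of these data known. For the members the choice followed knowledge of the pathway and not their values. Other autophagy genes, UFM1 and UFSP2 are not analysed here, since transcript IDs were not paired with names. Promoters came from RefSeq (GRCh38.p14).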

Additional observations from a re-analysis of the deposited data

Results flagged for a closer look

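The effects of the knockouts, each taken against the same WT libraries, differed from each other for 5 results by edgeR's test of the difference itself, UFM1-KO against UFSP2-KO. In membrane footprints these were SQSTM1 (log2 difference 0.67, SE 0.21), MAP1LC3B (0.83, SE 0.28), GABARAP (1.05, SE 0.26) and GABARAPL2 (0.86, SE 0.27), and in cytosol footprints MAP1LC3B (0.95, SE 0.27). In each case both UFM1-KO libraries were above both UFSP2-KO libraries. Of all features, edgeR called 21.4% in membrane and 12% in cytosol footprints, and libraries did not overlap for 64% and 50%. With DESeq2, GABARAP alone kept its call. The DESeq2 adjusted p in membrane footprints was 0.108 for SQSTM1, 0.142 for MAP1LC3B and 0.106 for GABARAPL2. In cytosol footprints it was 0.0642 for MAP1LC3B. Groups of 2 libraries are too small for a test of single libraries that stand apart. Each knockout was 1 clone, and the part of the clone in these differences cannot be told apart from that of the edited gene.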

How the results depend on the processing

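Members called by edgeR moved by over 1.5 times as follows. With DESeq2, membrane against cytosol in UFM1-KO went from 3 to 1, membrane footprints from 1 to 0 in UFSP2-KO against WT and from 4 to 1 in UFM1-KO against UFSP2-KO, cytosol footprints of the latter from 1 to 0, and mRNA of UFSP2-KO against WT from 0 to 1. With library size as the only scaling, UFSP2-KO membrane against cytosol went from 3 to 5 and cytosol footprints of UFM1-KO against UFSP2-KO from 1 to 3. That scaling moved the median of all features by up to -0.29 (UFM1-KO membrane against cytosol). With only the groups compared, UFSP2-KO against WT had 3 in membrane footprints and 1 in mRNA, and with no filter on low counts 1 in mRNA. Leaving out 1 library at a time gave 1 to 3 for membrane against cytosol in UFM1-KO and 1 to 5 in UFSP2-KO, 0 to 0 for membrane and 0 to 1 for cytosol footprints of UFSP2-KO against WT, 0 to 3 for membrane and 0 to 2 for cytosol footprints of UFM1-KO against UFSP2-KO, and 0 to 1 in each mRNA comparison. Counts over all features moved too: in membrane footprints, from 1232 to 506 with DESeq2 and to 407 to 562 with a library left out in UFSP2-KO against WT, and from 2372 to 1173 with DESeq2 and to 1098 to 1573 with a library left out in UFM1-KO against UFSP2-KO. In mRNA they were 274, 998 and 2217 for UFM1-KO against WT, UFSP2-KO against WT and UFM1-KO against UFSP2-KO, and with a library left out 59 to 602, 194 to 1350 and 1365 to 1958. In cytosol footprints, leave-one-out counts were 170 to 449 for UFSP2-KO against WT (442 with all) and 677 to 1011 for UFM1-KO against UFSP2-KO (1331 with all, 715 with DESeq2). With only the groups compared, UFSP2-KO against WT had 2123 in membrane footprints and 1504 in mRNA. With no filter on low counts it had 1204 in mRNA. For membrane against cytosol, all features called in UFM1-KO went from 3195 to 2706 with DESeq2. In UFSP2-KO they went from 4086 to 4677 with library size as the only scaling. Leaving out any 1 library lowered these counts in both knockouts. In cytosol footprints of UFM1-KO against UFSP2-KO, library size only gave 1451 (1331 with TMM). The cause was not tested.

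With the letter a or b as a replicate block, UFSP2-KO against WT had 2 members called in membrane footprints, 3 in cytosol footprints and 1 in mRNA, and UFM1-KO against UFSP2-KO had 2 in cytosol footprints. Over all features these were 1810, 852, 952 and 1750. Membrane against cytosol with that block had 5 members called in WT and 4 in UFSP2-KO, beside 4659 and 4441 of all features. The labels do not say that a letter pairs samples, and a-minus-b differences of the groups correlated at 0.0323 to 0.221 in footprints and -0.364 to 0.0517 in mRNA. Of 176 alternative values of the 16 called differences, 0 changed sign and 35 lost the call; of 1882 values of the others, 34 gained a call and 152 changed sign. Fitting all mRNA transcripts with a length, an alternative chosen after seeing the data, changed no count of members called. BECN1 had 8 to 74 counts per footprint library, ATG5 14 to 79, and RETREG1 0 to 4 in the cytosol.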
